A study of Mus musculus with 8 samples.

Results

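The genes described here code for enzymes of cholesterol synthesis and for Insig1, a protein that restrains the pathway, and all are known targets of the SREBP transcription factors. They were selected by gene symbol in the probe table of an array experiment on mouse macrophages with and without iNOS, the inducible nitric oxide synthase encoded by Nos2. Of the 8 genes listed, 6 had a probe under their symbol: Idi1, Fdps, Sqle, Lss, Cyp51 and Insig1. Hmgcs1 and Fdft1 were not analysed here. The 6 genes were represented by 10 of the 25697 probes, with 4 probes for Insig1, 2 for Sqle and 1 for each of the others. A probe was tested if its detection p-value, the share of negative control probes at least as bright, was under 0.05 on at least 2 arrays. This held for 9 of the 10 probes and for 13868 probes in all, so that the 6 genes stood among 10163 tested gene symbols. The exception was the Insig1 probe that starts at base 2459 of its transcript, whose intensities ran from -1.9 to 4.3 with detection p-values of 0.10401 or more on all 8 arrays.

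Female C57bl/6J mice aged 8 weeks, either WT or iNOS deficient, gave bone marrow cells that grew for 7 days with GM-CSF (10 ng/ml) into macrophages. Part of the cultures then received LPS (200 ng/ml) together with IFN-γ (10 ng/ml) for 6 h, the stimulus used for M1 activation, and the rest received no stimulus. The design asks how iNOS deficiency alters the M1 state. The study's methods give the deficient line as B6.129P2-Nos2tm1Lau/J, a germline allele carried by all cells of the mouse. The 4 groups, unstimulated and M1 cells of each genotype, were measured on 2 Illumina bead arrays each. The labels do not say whether the 2 arrays of a group came from separate mice, so p-values measure the spread between arrays, which may be technical.

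Cholesterol is built from acetyl-CoA through mevalonate and the isoprenoid diphosphates to squalene, which is then closed into lanosterol and trimmed to cholesterol. When sterols in the endoplasmic reticulum are scarce, SCAP escorts SREBP2 to the Golgi apparatus, where it is cut and released to switch on nearly every gene of the pathway. INSIG proteins hold SCAP back when sterols are plentiful, and 25-hydroxycholesterol, which activated macrophages make with the enzyme Ch25h, is a strong signal for this retention. Insig1 is itself an SREBP target, so the pathway induces its own brake.

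SREBPs act at promoters together with the factors NF-Y and Sp1. The promoter windows of the genes are therefore shown, since the values that follow describe genes known to share this control. RefSeq (GRCm38.p6) gave a window for 4 of the 6 genes, and Sqle and Fdps had none in the table used. Printed are the 250 bases upstream of the start, 5′ to 3′ on the gene's strand. They lie at chr13:8885356-8885605 (+) for Idi1, chr10:76531355-76531604 (+) for Lss, chr5:4104698-4104947 (-) for Cyp51 and chr5:28071162-28071411 (+) for Insig1. Capitals mark matches to CCAAT, the NF-Y box, and to GGGCGG, the Sp1 box, on either strand.
Idi1: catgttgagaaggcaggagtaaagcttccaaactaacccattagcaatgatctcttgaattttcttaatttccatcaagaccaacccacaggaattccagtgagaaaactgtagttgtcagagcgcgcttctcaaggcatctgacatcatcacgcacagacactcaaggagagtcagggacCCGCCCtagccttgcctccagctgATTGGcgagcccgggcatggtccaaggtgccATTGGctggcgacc
Lss: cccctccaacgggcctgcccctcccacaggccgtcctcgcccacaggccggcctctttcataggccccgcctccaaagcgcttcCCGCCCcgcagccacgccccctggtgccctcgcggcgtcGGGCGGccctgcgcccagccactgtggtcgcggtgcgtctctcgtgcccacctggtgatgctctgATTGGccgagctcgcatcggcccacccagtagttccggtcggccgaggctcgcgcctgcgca
Cyp51: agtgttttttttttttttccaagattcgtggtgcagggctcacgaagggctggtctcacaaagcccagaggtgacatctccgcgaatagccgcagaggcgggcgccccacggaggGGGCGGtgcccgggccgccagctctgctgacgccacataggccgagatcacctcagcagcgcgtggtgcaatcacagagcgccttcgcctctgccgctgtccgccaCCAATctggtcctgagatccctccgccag
Insig1: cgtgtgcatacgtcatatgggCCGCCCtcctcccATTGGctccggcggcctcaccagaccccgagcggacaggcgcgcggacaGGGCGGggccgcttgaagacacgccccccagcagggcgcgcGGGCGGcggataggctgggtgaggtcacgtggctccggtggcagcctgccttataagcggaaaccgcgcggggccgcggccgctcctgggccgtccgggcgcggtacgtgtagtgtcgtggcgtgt

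Each of the 4 windows held at least 1 CCAAT and at least 1 GGGCGG, and no 2 matches overlapped. Among all 32851 windows of this length in the table, 33.8% held CCAAT, 32.7% held GGGCGG and 11.0% held both. TCACNCCAC, a core of the sterol regulatory element that SREBPs bind, was searched on both strands too, and 0 of the 4 windows and 1.05% of all windows held it. Of 16 windows of 13 other cholesterol synthesis genes, 12 held CCAAT, 12 held GGGCGG, 10 held both (62.5%) and 0 held TCACNCCAC. These are counts of letters in fixed windows and are given as a description of the sequences.

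**Figure D1:**
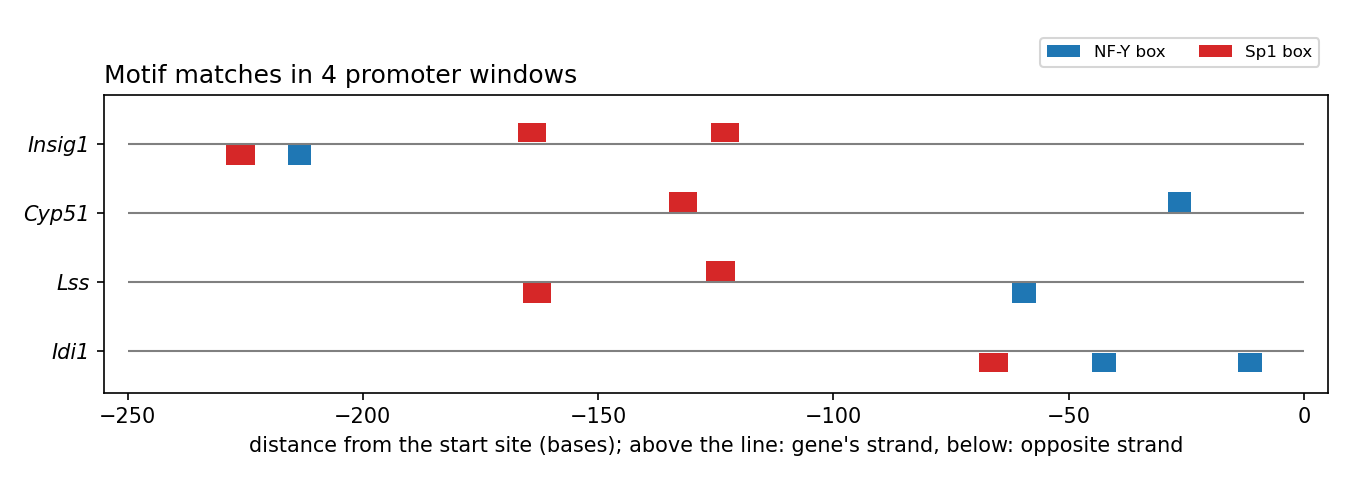
Positions of CCAAT (NF-Y box, blue) and GGGCGG (Sp1 box, red) in the 250 bases upstream of the start of Idi1, Lss, Cyp51 and Insig1. The x axis is the distance from the start site in bases, and matches on the gene's own strand are drawn above the line; the CCAAT matches of Idi1, Lss and Cyp51 lie between positions -62 and -10 and that of Insig1 lies between -216 and -212.

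Intensities were scaled between arrays on probes of stable rank and given as log2, with values under 1 set to 1. Fold changes are differences of group means on this scale, tested with limma over all 13868 probes with Benjamini-Hochberg adjustment and called at an adjusted p under 0.05. A gene with several probes is counted by its brightest. Between 11833 and 12673 probes (46.0% to 49.3%) were detected per array, and the 2 arrays of a group differed by a median of 0.16 to 0.19 log2 over probes. The number of arrays limits the precision. The probe for Nos2 did not separate the genotypes: it read 7.47 and 7.05 on the WT M1 arrays and 7.49 and 7.67 on those labelled iNOS-/- M1 (log2 fold change 0.32 ± 0.32 SE, adjusted p = 0.4448), and it was undetected on the 4 unstimulated arrays. It starts at base 3546 of the transcript and does not show whether the deleted part is transcribed, so it does not check the labels, and the genotype directions given here rest on the labels alone. All 8 macrophage markers were detected on both arrays of every group, while 0 of 5 markers of T, B and NK cells and 0 of 4 of fibroblasts were.

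Markers of other cells did differ between the groups. The summed scaled intensity of 9 dendritic cell markers was 293.8 to 321.9 in WT unstimulated, 6205 to 6236 in WT M1, 4484 to 4683 in iNOS-/- unstimulated and 18170 to 19220 in iNOS-/- M1 arrays. That of 7 granulocyte markers was 946.7 to 962.8, 1339 to 1455, 1593 to 1688 and 3795 to 3916 in the same order, and that of 7 markers of dividing cells was 456.8 to 524.4, 1241 to 1364, 1515 to 1516 and 566.4 to 576.7. Such sums weigh the brightest markers most. In iNOS-/- M1 against WT M1, of 8 dendritic cell markers tested 3 were called higher, 1 lower and 4 not. Of 6 granulocyte markers 3 were higher and 0 lower, and of 6 markers of dividing cells 0 were higher and 5 lower. Over all genes 23.7% were higher and 26.0% lower. In iNOS-/- unstimulated against WT unstimulated, 7 of the 8 dendritic cell markers were called higher and 0 lower. Of the 6 granulocyte markers 5 were higher and 0 lower, and the 6 of dividing cells gave the same counts. Over all genes 17.9% were higher and 16.2% lower there. In the WT unstimulated arrays 3 of the 9 dendritic cell markers were undetected on both arrays, as were 4 of the 7 granulocyte markers. In iNOS-/- M1 arrays 2 of the 9 dendritic cell markers, Flt3 and Cd209a, were undetected, as were 2 of the 7 granulocyte markers, Mpo and Elane. In both groups 2 of the 7 markers of dividing cells were undetected. Flt3 and Mpo were undetected in every group, and Elane was detected on 1 array at most in any group. Cd209a was undetected in WT unstimulated arrays too, and was detected in WT M1 and iNOS-/- unstimulated arrays. The part of such cells in the results on sterol genes was not tested. In cultures of mixed cells, fewer cells of a type and less RNA per cell cannot be told apart.

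After LPS plus IFN-γ, most of the pathway stood lower in iNOS-/- than in WT cells. Of the 6 genes, 5 were lower in iNOS-/- M1 than in WT M1 (Fdps, Sqle, Lss, Cyp51 and Insig1, by 1.68-fold to 3.86-fold) and 1, Idi1, was higher (2.11-fold). Over all tested genes 26.0% were called lower and 23.7% higher in this comparison. The median log2 fold change of the 6 genes was -1.01, against -0.03 over all genes. The share of all genes whose arrays separate these 2 groups was not counted, so no count of separated genes is given. On the Insig1 probe at base 651 the groups overlapped.

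Before stimulation the genes that were lower in the M1 state were lower in iNOS-/- cells too, with smaller estimates on their brightest probes. For Fdps and Insig1 this change of size did not pass the test of a difference given below. On the Insig1 probes at bases 651 and 686 the unstimulated difference was the larger. In iNOS-/- unstimulated against WT unstimulated cells 5 of the 6 genes were lower (by 1.27-fold to 1.79-fold) and 0 were higher, with Idi1 not called. The background was 16.2% lower and 17.9% higher, and the median of the 6 genes was -0.54 against 0 over all genes. This comparison shares no array with that of the M1 groups. The scaling, the detection filter, the choice of the brightest probe and the estimate of spread used all 8 arrays, however, so the 2 are not fully independent.

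The response to LPS plus IFN-γ was small in WT cells. Insig1 alone was called, 1.40-fold higher and on its brightest probe only, while 0 of the 6 genes were called lower. The background was 20.9% higher and 15.5% lower. In iNOS-/- cells all 6 genes were called: Idi1 (3.11-fold) and Insig1 (1.36-fold) rose, and Fdps, Sqle, Lss and Cyp51 fell (by 1.26-fold to 3.07-fold), against 25.2% higher and 26.8% lower over all genes. The median of the 6 genes was 0.17 in WT and -0.39 in iNOS-/- cells, beside 0.06 and -0.005 over all genes. Tested directly, the response differed between the genotypes for 4 genes, with Sqle, Lss and Cyp51 more negative and Idi1 more positive in iNOS-/- cells. Over all genes 23.6% had a more negative and 20.1% a more positive response there. The responses share the unstimulated and M1 arrays with the genotype comparisons and are not independent of them.

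With 2 arrays a group, some of these counts rested on single arrays. The call in WT cells was lost without either WT unstimulated replicate, without WT M1 replicate 2 or without either iNOS-/- M1 replicate, and under quantile normalization or without WT M1 replicate 1 the gene called was Lss, lower, in place of Insig1. With the probes of a gene averaged it was Sqle, higher (0.37, adjusted p = 0.01879), and Insig1 gave 0.21 (adjusted p = 0.1349). In the unstimulated comparison 2 genes were called without WT unstimulated replicate 1 or iNOS-/- unstimulated replicate 2, and 1 without WT unstimulated replicate 2 or iNOS-/- unstimulated replicate 1. In iNOS-/- cells the response was called for 3 genes without iNOS-/- unstimulated replicate 1 or iNOS-/- M1 replicate 1, and the difference of the responses for 2 genes without WT unstimulated replicate 2 or WT M1 replicate 2. For iNOS-/- M1 against WT M1, 5 or 6 of the 6 genes were called under every alternative tried.

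**Figure D2:**
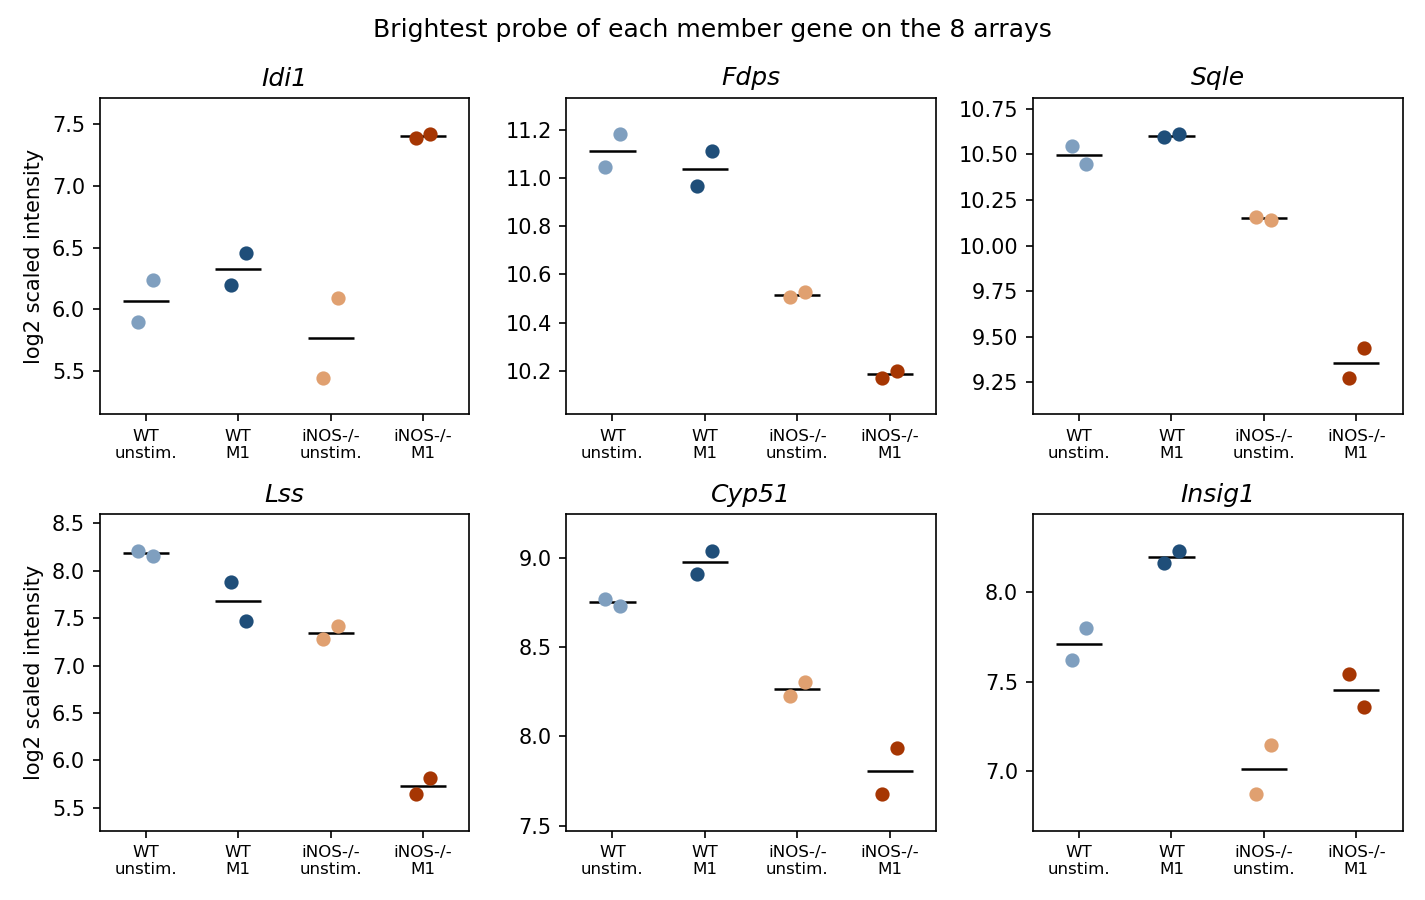
Log2 scaled intensity of the brightest probe of each gene on the 8 arrays, in pathway order. Points are single arrays, horizontal bars are group means (n = 2 arrays), and each panel has its own y axis, which does not start at 0; the iNOS-/- M1 arrays are the lowest for Fdps, Sqle, Lss and Cyp51 and the highest for Idi1.

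Idi1, isopentenyl diphosphate isomerase, converts the isoprenoid unit made from mevalonate into its reactive isomer. Its log2 intensities were 5.90 and 6.23 in WT unstimulated, 6.20 and 6.45 in WT M1, 5.45 and 6.09 in iNOS-/- unstimulated, and 7.39 and 7.42 in iNOS-/- M1 arrays. The iNOS-/- M1 arrays stood above the others, among which WT unstimulated overlapped both WT M1 and iNOS-/- unstimulated. Idi1 rose by 1.64 ± 0.25 (SE, log2) with LPS plus IFN-γ in iNOS-/- cells (adjusted p = 0.003704) and was 1.08 ± 0.25 higher in iNOS-/- M1 than in WT M1 (adjusted p = 0.01763). In WT cells the change was 0.26 (95% interval -0.37 to 0.89, adjusted p = 0.4664), and the response differed between genotypes by 1.38 ± 0.35 (adjusted p = 0.02813). The higher level in iNOS-/- M1 than in WT M1 was not called without WT M1 replicate 1, iNOS-/- M1 replicate 1 or iNOS-/- M1 replicate 2, with adjusted p-values of up to 0.08343 over the alternatives. The difference of the responses was not called without a detection filter, without WT unstimulated replicate 2, or without any 1 of the 4 M1 arrays, with adjusted p-values of up to 0.08395.

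Fdps, farnesyl diphosphate synthase, builds the farnesyl unit that serves sterols, prenyl groups, dolichol and ubiquinone. Its log2 intensities were 11.05 and 11.18 in WT unstimulated, 10.97 and 11.11 in WT M1, 10.51 and 10.53 in iNOS-/- unstimulated, and 10.17 and 10.20 in iNOS-/- M1 arrays. Both WT groups, which overlapped each other, stood above iNOS-/- unstimulated, and iNOS-/- M1 was the lowest. The difference between the WT groups was -0.07 (95% interval -0.32 to 0.17). Fdps was 0.85 ± 0.10 lower on the log2 scale in iNOS-/- M1 than in WT M1 (log2 fold change -0.85, adjusted p = 0.001529) and 1.51-fold lower in iNOS-/- unstimulated cells (-0.60 ± 0.10, adjusted p = 0.008251). Its response did not pass the test of a difference between genotypes (-0.26, 95% interval -0.60 to 0.09, adjusted p = 0.1875), and under quantile normalization and neqc it did.

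Sqle, squalene epoxidase, carries out the first oxygen-dependent step and is a point of control of the sterol branch. The brighter of its 2 probes read 10.55 and 10.45 in WT unstimulated, 10.59 and 10.61 in WT M1, 10.16 and 10.14 in iNOS-/- unstimulated, and 9.28 and 9.44 in iNOS-/- M1 arrays. No pair of groups overlapped, although the WT groups differed by a log2 fold change of 0.10 only (95% interval -0.13 to 0.34, adjusted p = 0.4351). Sqle was 2.37-fold lower in iNOS-/- M1 than in WT M1 (-1.24 ± 0.09, adjusted p = 0.0004814) and fell 1.73-fold with stimulation in iNOS-/- cells (-0.79 ± 0.09, adjusted p = 0.001512). The difference between the genotypes' responses was -0.90 ± 0.13 (adjusted p = 0.004947).

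The dimmer Sqle probe, which starts at base 1081 and shares no base with the brighter one at base 2224, gave the same direction for the genotypes. It read 7.83 and 7.77 in WT unstimulated, 8.36 and 8.53 in WT M1, 7.44 and 7.46 in iNOS-/- unstimulated, and 6.99 and 6.75 in iNOS-/- M1 arrays. On this probe Sqle rose in WT cells (0.64 ± 0.12, adjusted p = 0.01228), fell in iNOS-/- cells (-0.58 ± 0.12, adjusted p = 0.01122) and was 2.98-fold lower in iNOS-/- M1 than in WT M1 (-1.57 ± 0.12, adjusted p = 0.0004851). The probes therefore differed in whether the WT response was called. Before stimulation the dimmer probe's genotype difference was -0.36 and not called (adjusted p = 0.07585), and that of the brighter probe was -0.35 and called (adjusted p = 0.04088). The call on the brighter probe was lost under quantile normalization (-0.25, adjusted p = 0.09008) and under neqc (-0.25, adjusted p = 0.06339).

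Lss, lanosterol synthase, closes squalene epoxide into the first sterol of the pathway. Its log2 intensities were 8.21 and 8.16 in WT unstimulated, 7.88 and 7.47 in WT M1, 7.28 and 7.41 in iNOS-/- unstimulated, and 5.65 and 5.81 in iNOS-/- M1 arrays. The iNOS-/- M1 arrays lay more than 1 log2 unit below all others. The fall with LPS plus IFN-γ was -0.51 ± 0.16 in WT cells, which was not called (adjusted p = 0.06022), and -1.62 ± 0.16 in iNOS-/- cells (adjusted p = 0.0008073), and the 2 responses differed (-1.11 ± 0.23, adjusted p = 0.01389). By brightest probe, Lss showed the largest genotype difference of the 6 genes in both states, 3.86-fold lower in iNOS-/- M1 than in WT M1 (-1.95 ± 0.16, adjusted p = 0.0006091) and 1.79-fold lower before stimulation (-0.84 ± 0.16, adjusted p = 0.01465).

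Cyp51, lanosterol 14α-demethylase, removes a methyl group from lanosterol. Its log2 intensities were 8.77 and 8.73 in WT unstimulated, 8.91 and 9.04 in WT M1, 8.22 and 8.30 in iNOS-/- unstimulated, and 7.68 and 7.93 in iNOS-/- M1 arrays. WT M1 was the highest group and iNOS-/- M1 the lowest, with no overlap between any groups. The WT difference did not pass the test (0.23, 95% interval -0.07 to 0.52, adjusted p = 0.1987). Cyp51 fell by 0.46 ± 0.12 on the log2 scale in stimulated iNOS-/- cells (adjusted p = 0.02379) and was 2.25-fold lower in iNOS-/- M1 than in WT M1 (-1.17 ± 0.12, adjusted p = 0.001062). Before stimulation it was 1.40-fold lower in iNOS-/- cells (-0.49 ± 0.12, adjusted p = 0.02952), and its responses differed by -0.68 ± 0.17 (adjusted p = 0.02438).

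Insig1 anchors the SCAP and SREBP complex in the endoplasmic reticulum. Its brightest probe read 7.62 and 7.80 in WT unstimulated, 8.16 and 8.23 in WT M1, 6.87 and 7.15 in iNOS-/- unstimulated, and 7.54 and 7.36 in iNOS-/- M1 arrays. On this probe both genotypes rose with LPS plus IFN-γ, from a lower start in iNOS-/- cells, and iNOS-/- M1 stayed below WT unstimulated arrays. The rise was 0.49 ± 0.14 in WT (adjusted p = 0.04507) and 0.44 ± 0.14 in iNOS-/- cells (adjusted p = 0.0453), and the test of their difference gave -0.05 (95% interval -0.54 to 0.45, adjusted p = 0.872). Insig1 was lower in iNOS-/- cells both before stimulation (-0.70 ± 0.14, adjusted p = 0.01599) and in the M1 state (-0.75 ± 0.14, adjusted p = 0.008404).

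The probes for Insig1 did not read alike in the M1 groups. A probe starting at base 651 read 6.24 and 6.06 in WT unstimulated, 6.10 and 5.99 in WT M1, 5.29 and 5.02 in iNOS-/- unstimulated, and 6.20 and 6.07 in iNOS-/- M1 arrays, so that the M1 groups overlapped. The probe at base 686, which shares 15 of its 50 bases with it, read 5.89 and 5.71, 5.99 and 6.12, 5.06 and 4.74, and 5.79 and 5.68 in the same order. For iNOS-/- M1 against WT M1 these probes gave 0.09 (adjusted p = 0.622) and -0.32 (adjusted p = 0.133), where the brightest probe at base 2239 gave -0.75. They showed a larger rise in iNOS-/- cells, 0.98 and 0.84, and a larger genotype difference before stimulation, -0.997 and -0.904, all 4 of them called. The WT response was called on neither (-0.11, adjusted p = 0.5893, and 0.25, adjusted p = 0.2422). At base 651 the iNOS-/- M1 arrays overlapped the WT unstimulated arrays. The difference of the responses was called on the probe at base 651 (1.09, adjusted p = 0.008887) and not on the probe at base 686 (0.59, adjusted p = 0.07226). The lower Insig1 level in unstimulated iNOS-/- cells was thus called on all 3 probes, whereas the M1 difference between genotypes was called on 1.

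**Figure D3:**
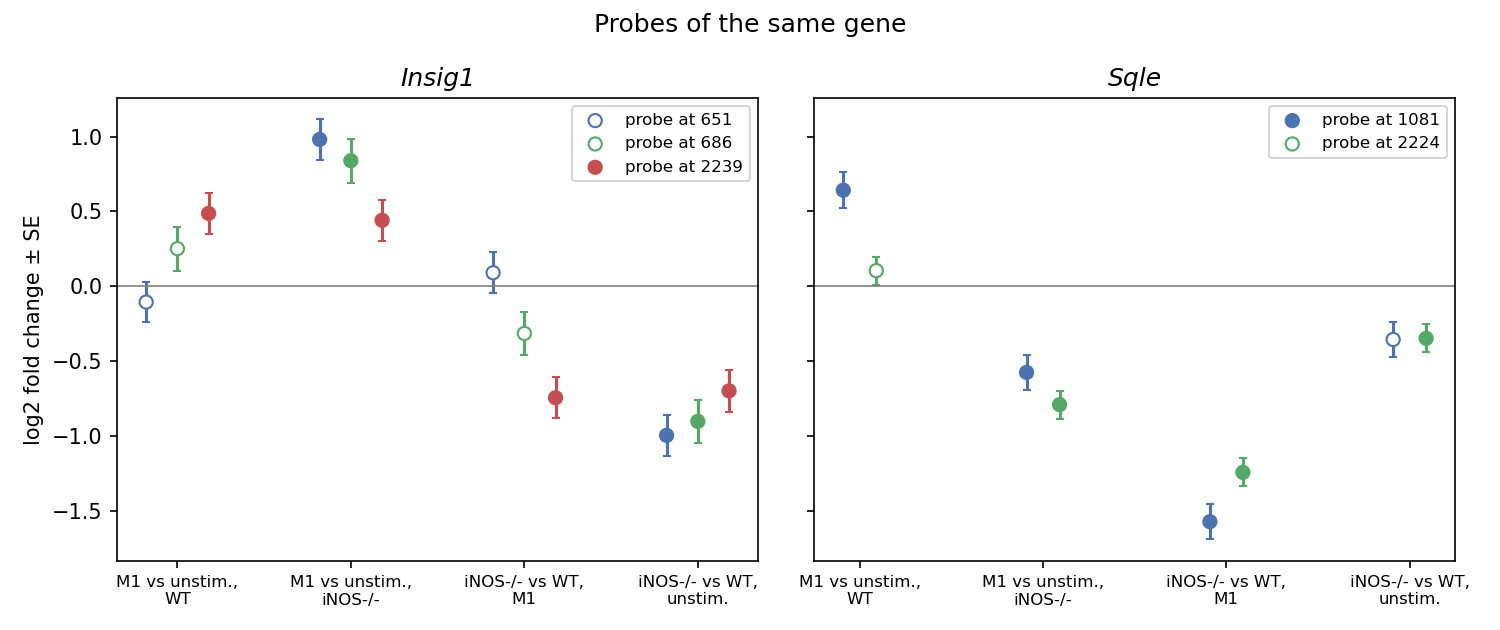
Log2 fold change with SE of each tested probe of Insig1 (3 probes) and Sqle (2 probes) in 4 comparisons. Filled points were called at an adjusted p under 0.05 and open points were not; both Sqle probes are below 0 for iNOS-/- M1 against WT M1, while only the Insig1 probe at base 2239 is called there.

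The order of the groups varied from gene to gene. Sqle and Cyp51 had their highest mean in WT M1 and their lowest in iNOS-/- M1, Fdps and Lss their highest in WT unstimulated and their lowest in iNOS-/- M1, Insig1 its highest in WT M1 and its lowest in iNOS-/- unstimulated, and Idi1 its highest in iNOS-/- M1. Centring each gene on its own mean and taking the median of the 6 genes gave 0.33 and 0.30 in WT unstimulated, 0.46 and 0.44 in WT M1, -0.21 and -0.16 in iNOS-/- unstimulated, and -0.65 and -0.51 in iNOS-/- M1 arrays. Cyp51 lay closest to this profile, with a root mean square difference of 0.07 log2 over the 8 arrays, followed by Fdps (0.10), Sqle (0.14), Insig1 (0.34), Lss (0.59) and Idi1 (0.94). The profile is the median of these same 6 genes, so those in the middle lie near it by construction. Their distances cannot be compared with those of other genes. Among 7329 other genes with a probe detected on all 8 arrays, those among the closest to the profile were Map3k3 (0.0715), 1110057K04Rik (0.1019), Gm2a (0.1077) and Hsd17b7 (0.1078). With 8 arrays in 4 groups such likeness is mostly the order of 4 group means.

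The other enzymes of the pathway were taken from a fixed list, of which 13 genes are described, 12 had a probe and 11 were tested. Mvk was not analysed here, and the Ggps1 probes were near background. In iNOS-/- M1 against WT M1 cells 9 of the 11 were lower and 1, Pmvk, was higher, with a median of -1.08, or -1.04 with genes undetected in a group set at their bounds. Before stimulation 6 were lower and 1, Lbr, was higher (median -0.55). In response to LPS plus IFN-γ, 8 fell and 1 rose in iNOS-/- cells (median -0.79, or -0.66 at the bounds), whereas in WT cells 1 fell, Msmo1, and 1 rose, Lbr (median -0.17). The response differed between genotypes for 6 of the 11, more negative in iNOS-/- cells for 5. The shares called over all genes are those given above for each comparison.

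Upstream of Idi1, Acat2, the cytosolic thiolase that joins acetyl-CoA units, read 8.00 and 7.94 in WT M1 and 4.85 and 4.94 in iNOS-/- M1 arrays. It was 8.43-fold lower (-3.08 ± 0.08, adjusted p = 9.895e-05), and the means of its other groups lay between 7.60 and 8.16. Mvd, mevalonate diphosphate decarboxylase, read 8.69 and 8.78 in WT M1 and 6.25 and 6.31 in iNOS-/- M1 arrays, 5.48-fold lower (-2.45 ± 0.09, adjusted p = 0.0001202). Pmvk, phosphomevalonate kinase, which acts just before Mvd, went the other way: it read 6.75 and 6.38 in WT M1 and 8.35 and 8.32 in iNOS-/- M1 arrays, 3.41-fold higher (1.77 ± 0.17, adjusted p = 0.0009986). Of the enzymes tested, Pmvk and Idi1 rose in stimulated iNOS-/- cells, while Acat2, Mvd, Fdps and Sqle, which precede, separate or follow them, fell.

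After lanosterol, Lbr and Tm7sf2 code for enzymes of the same reduction step. Lbr was lower in iNOS-/- M1 than in WT M1 (-1.08 ± 0.11, adjusted p = 0.001207) but higher before stimulation (1.37 ± 0.11, adjusted p = 0.001006), and Tm7sf2 was called in none of the 5 comparisons, with 0.10 for the M1 groups (adjusted p = 0.5724). Lbr is also a nuclear envelope protein. The demethylation and isomerisation enzymes were lower in iNOS-/- M1 cells, with log2 fold changes of -1.04 for Msmo1 (listed under its older symbol Sc4mol), -1.63 for Nsdhl, -0.89 for Hsd17b7 and -0.62 for Ebp. All 4 tested Nsdhl probes were lower there, with -1.63 to -2.10 on the 3 detected on all arrays; the other was detected on 1 of the 2 iNOS-/- M1 arrays.

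At the last steps, Dhcr7, which reduces 7-dehydrocholesterol to cholesterol, read 6.93 and 7.17 in WT unstimulated, 6.53 and 6.58 in WT M1, and 5.96 and 5.68 in iNOS-/- unstimulated arrays, and it was undetected on both iNOS-/- M1 arrays. It was at least 12.6-fold lower in iNOS-/- M1 than in WT M1 (adjusted p = 0.000288) and at least 7.59-fold lower than in iNOS-/- unstimulated cells (adjusted p = 0.0002981). Such bounds replace the probe's value on a dim array by that array's dimmest detected probe where this is larger. Sc5d was dim, undetected on both iNOS-/- M1 arrays and at least 1.52-fold lower there than in WT M1 (adjusted p = 0.03956).

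**Figure D4:**
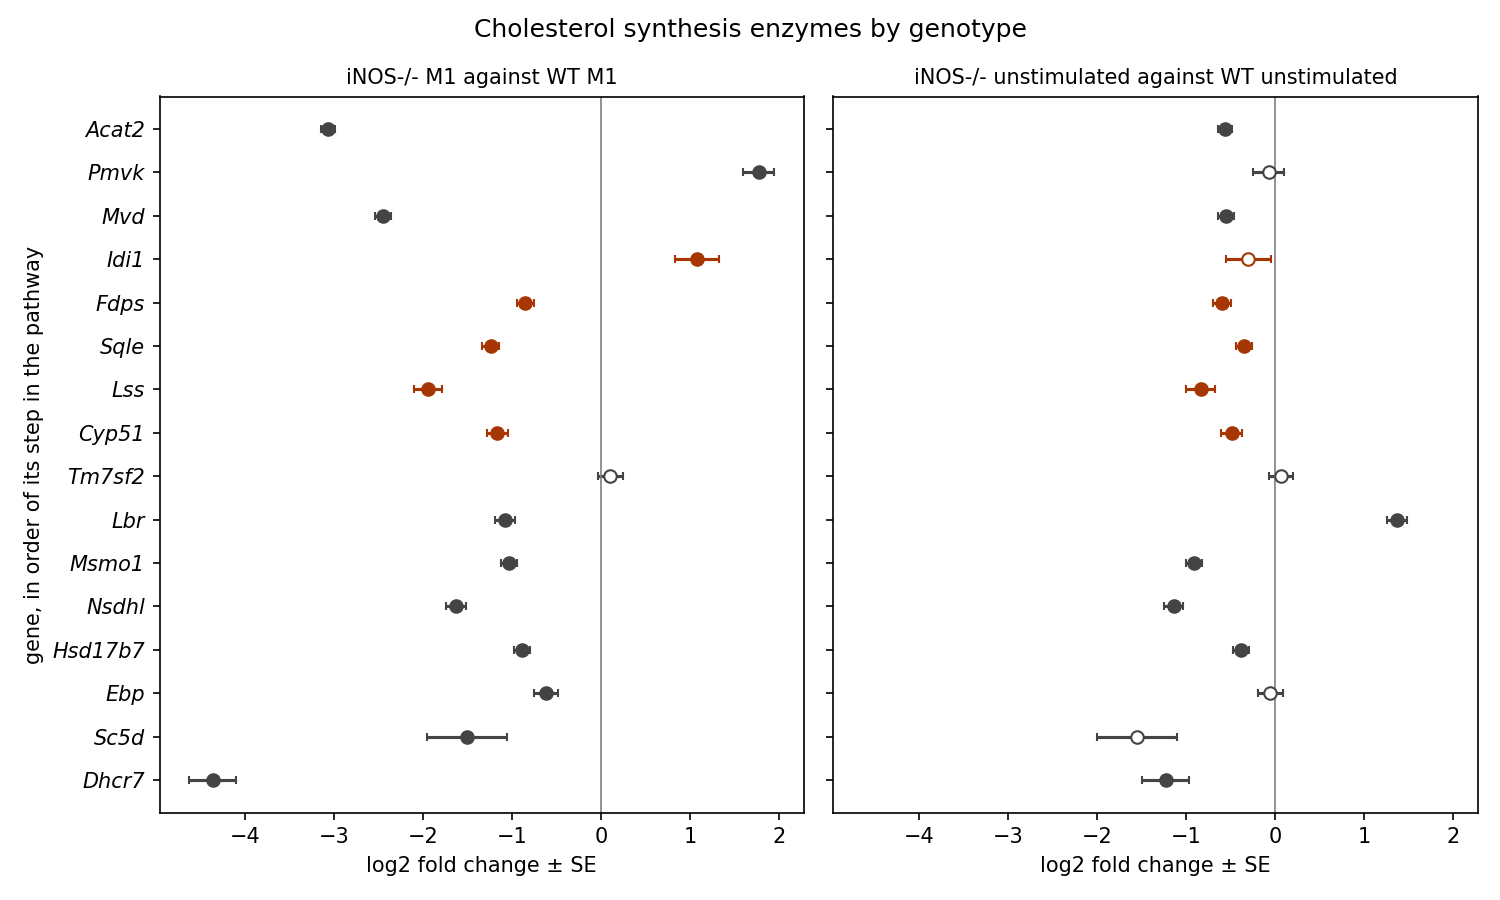
Log2 fold change with SE of iNOS-/- against WT cells for 16 tested cholesterol synthesis enzymes in the order of their steps, after LPS plus IFN-γ (left) and before stimulation (right). Orange marks Idi1, Fdps, Sqle, Lss and Cyp51, filled points were called at an adjusted p under 0.05, and Dhcr7 and Sc5d, undetected in iNOS-/- M1, are drawn at their fitted values; in the M1 state Pmvk and Idi1 are the called genes to the right of 0.

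Regulators of SREBP showed no common direction. Of 11 genes of SREBP processing and sterol uptake 10 were tested, and Npc1 was not analysed here. In iNOS-/- M1 against WT M1 cells 3 were higher and 3 lower (median -0.44), and in unstimulated cells 2 were higher and 3 lower (median -0.43). Over all genes 23.7% were higher and 26.0% lower between the M1 groups (median -0.03). Between the unstimulated groups these shares were 17.9% and 16.2% (median 0). Srebf2, the gene of SREBP2, read 7.72 and 7.70 in WT unstimulated, 8.92 and 8.77 in WT M1, 8.62 and 8.66 in iNOS-/- unstimulated, and 8.25 and 8.31 in iNOS-/- M1 arrays. It was lowest in WT unstimulated cells, where the 6 genes were not, rose in WT cells (1.13 ± 0.09, adjusted p = 0.0007686) and fell in iNOS-/- cells (-0.36 ± 0.09, adjusted p = 0.02082). In unstimulated cells it was higher in iNOS-/- than in WT (0.93 ± 0.09, adjusted p = 0.001585), while 5 of the 6 target genes were lower.

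Insig2, the other INSIG gene, read 8.15 and 8.03 in WT unstimulated, 7.20 and 7.29 in WT M1, 7.30 and 7.34 in iNOS-/- unstimulated, and 8.15 and 7.97 in iNOS-/- M1 arrays. It fell with stimulation in WT (-0.85 ± 0.10, adjusted p = 0.003159) and rose in iNOS-/- cells (0.74 ± 0.10, adjusted p = 0.002665), and it was higher in iNOS-/- M1 than in WT M1 (0.82 ± 0.10, adjusted p = 0.00218). Its dimmer probe, at base 1901, was called in the same directions within each genotype (-0.34 and 0.37) but not between the M1 groups (0.16, adjusted p = 0.194). The other genes of this list that were higher in iNOS-/- M1 were Rnf139, an endoplasmic reticulum ubiquitin ligase (1.68, and 0.21, not called, on its dimmer probe), and Npc2, a lysosomal cholesterol carrier (0.59). Those lower were Stard4, a cytosolic sterol carrier (-1.91), Tmem97 (-1.90) and Srebf2 (-0.57). Scap was called in none of the 5 comparisons, with -0.44 for the M1 groups (95% interval -1.11 to 0.22).

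Genes of fatty acid and glycerolipid synthesis, which SREBP1 drives, were also mostly lower in iNOS-/- M1 cells. Of 15 listed genes 11 were tested. Acaca, Acacb and Me1 were not analysed here, and Fasn was detected on 1 array only. In iNOS-/- M1 against WT M1 cells 9 of the 11 were lower and 1, Elovl5, was higher (median -1.73, or -1.45 at the bounds), and 9 fell in iNOS-/- cells with stimulation. Before stimulation 3 were lower and 1 higher, with a median of -0.18. The shares over all genes were 26.0% lower and 23.7% higher between the M1 groups. They were 26.8% lower for the response in iNOS-/- cells, and 16.2% lower and 17.9% higher before stimulation. The largest differences between the M1 groups were in Elovl6, a fatty acid elongase undetected on both iNOS-/- M1 arrays (at least 5.76-fold lower), the desaturase Scd2 (-4.15), the phosphatidate phosphatase Lpin1 (-3.49) and Mid1ip1 (-1.84). Scd2 and Lpin1 were each detected on 1 of the 2 iNOS-/- M1 arrays. Srebf1, the gene of SREBP1, gave -1.02 there and was not called (adjusted p = 0.06127).

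Of 8 listed genes of the branch from farnesyl diphosphate to other isoprenoids 5 were tested, and in iNOS-/- M1 against WT M1 cells Pdss1, of ubiquinone side chain synthesis, was higher (1.36) and Fntb, a farnesyltransferase subunit, was lower (-0.62), with a median of 0.08. The remaining 3, Fnta, Dhdds and Coq2, gave 0.08, -0.79 and 0.09 and were not called. In unstimulated cells 1 of the 5 was higher and 0 were lower. These counts stand beside 23.7% higher and 26.0% lower over all genes between the M1 groups, and 17.9% and 16.2% between the unstimulated groups.

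Ch25h, the enzyme that makes 25-hydroxycholesterol, was higher in iNOS-/- cells, where 5 of the 6 sterol genes were lower. It read 5.23 and 4.99 in WT unstimulated, 9.33 and 9.42 in WT M1, 6.39 and 6.36 in iNOS-/- unstimulated, and 11.73 and 11.71 in iNOS-/- M1 arrays. No groups overlapped, and in each state the iNOS-/- arrays were the higher. Ch25h rose by 4.27 ± 0.11 in WT (adjusted p = 3.065e-05) and 5.35 ± 0.11 in iNOS-/- cells (adjusted p = 1.498e-05), and was 5.08-fold higher in iNOS-/- M1 than in WT M1 (2.35 ± 0.11, adjusted p = 0.0001797). In WT cells Ch25h rose, and of the 6 sterol genes Insig1 was called higher and 5 were not called. Whether Ch25h has a part in the levels of the sterol genes was not tested.

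Of 9 genes of oxysterol formation, sterol efflux and esterification, 8 were tested, and in the M1 state 5 were lower and 1, Ch25h, was higher in iNOS-/- cells (median -0.66). Apoe, the secreted lipid carrier, had a mean of 11.52 in WT unstimulated, 8.90 in WT M1, 6.87 in iNOS-/- unstimulated and 6.68 in iNOS-/- M1 arrays, so that its genotype difference was larger before stimulation (-4.65) than after (-2.22). The lower genes beside Apoe were the exporter Abcg1 (-1.81), Cyp27a1, which makes 27-hydroxycholesterol (-1.28), Soat1, which esterifies cholesterol (-0.81), and Nr1h3, the gene of the oxysterol receptor LXRα (-0.50 on its brightest probe, and 0.16, not called, on the other). Before stimulation 4 of the 8 were lower and 1 was higher. All tested genes gave 26.0% lower and 23.7% higher in the M1 state, and 16.2% lower and 17.9% higher before stimulation.

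**Figure D5:**
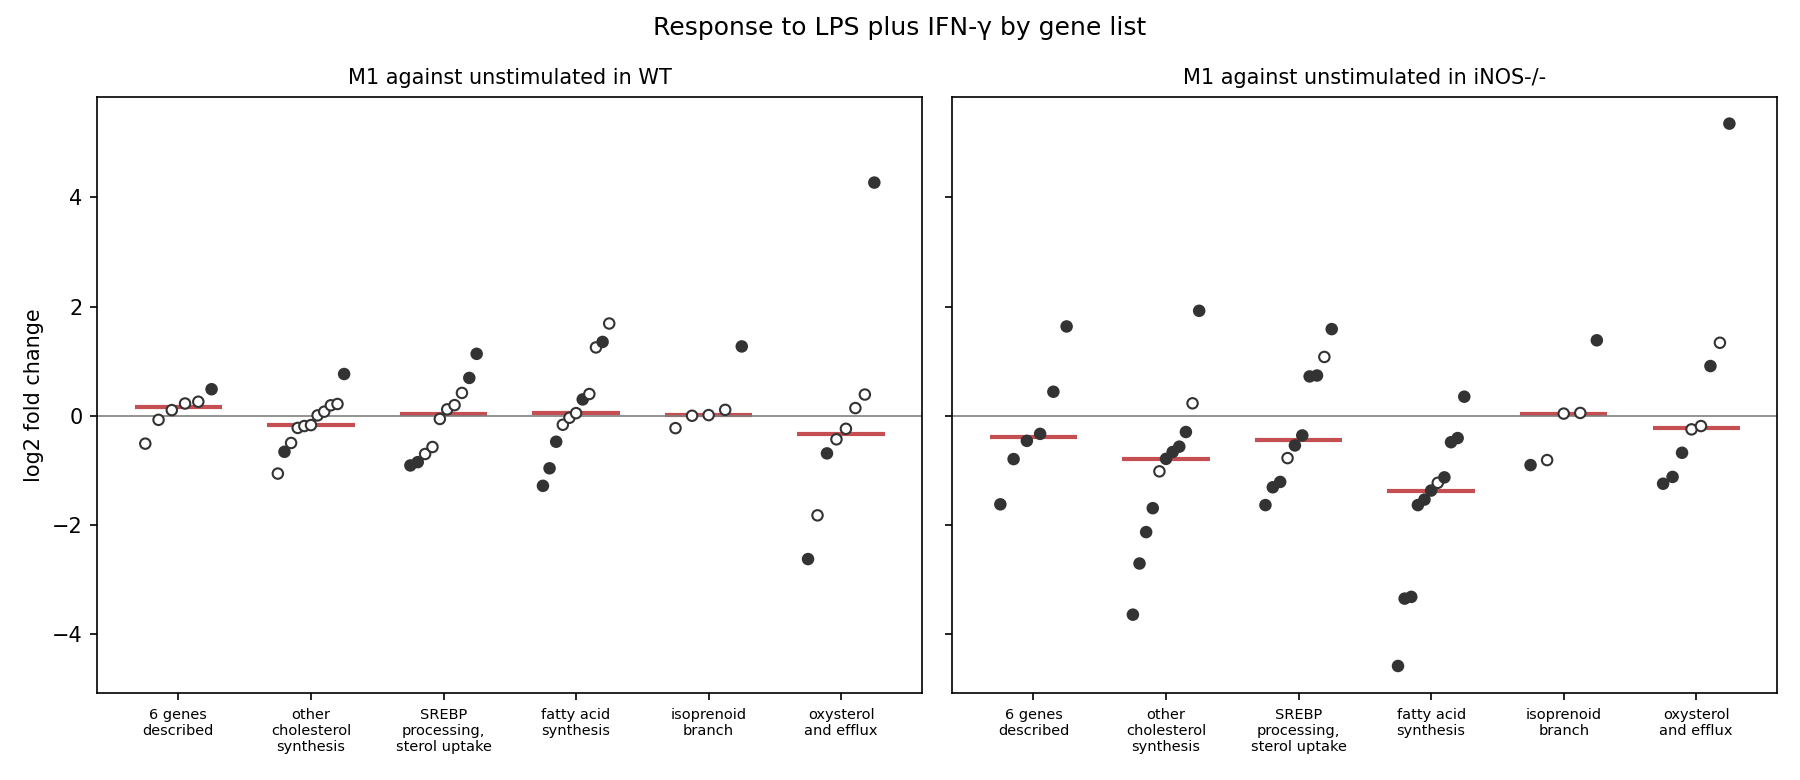
Log2 fold change of M1 against unstimulated cells in WT (left) and iNOS-/- (right) for each tested gene of 6 lists. Filled points were called at an adjusted p under 0.05, red bars are list medians, and genes undetected in a group are drawn at their fitted values; the medians of the 6 genes described (0.17 and -0.39), the other cholesterol synthesis genes (-0.17 and -0.79) and the fatty acid synthesis genes (0.05 and -1.37) are lower in iNOS-/- cells.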

How the data were processed

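RNA of 8 samples, 2 for each of 4 groups taken from the labels, was measured on Illumina bead arrays, which the labels give as MouseRef-8 v2.0 and the methods as MouseWG-8. The intensity that the authors deposited for each probe is a mean over its beads, without normalization across arrays. Beside it stands the deposited detection p-value. The file header names no background subtraction, although 25.2% to 27.2% of the intensities lay below 0 on each array, as values after subtraction can, so none was subtracted here. The submitters' processing notes name GenomeStudio and limma 3.14.4, and the methods describe background subtraction, a rank-invariant normalization, a floor of 1 for negative values, log2 values and Benjamini-Hochberg adjustment of limma's p-values. No value column was without a sample (0 columns).

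Arrays were scaled to their mean with a robust slope without intercept (R 4.3.3, MASS 7.3.60.0.1) over probes whose relative rank differed by less than 0.05 and lay between 0.5 and 0.9. The scale factors were 0.813 to 1.30. Values under 1 were set to 1 and log2 was taken. Probes detected on 2 or more arrays (p-value limit 0.05) were fitted with a one-way model of the 4 groups on all 8 arrays (lmFit and eBayes, limma 3.58.1), with 5 contrasts. The p-values are 2-sided and adjusted over all probes tested. The error given after ± is the standard error from this fit. The procedure was tested on simulated data.

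The genes and lists were chosen with earlier results of these data known. The lists were other cholesterol synthesis enzymes, SREBP processing and sterol uptake, SREBP-driven fatty acid synthesis, the isoprenoid branch, the oxysterol and efflux side, and markers of macrophages, dendritic cells, granulocytes, T, B and NK cells, fibroblasts and dividing cells. Some genes of these lists and 1 gene close to the profile are not reported here and were left out of the counts by list, while all probes stayed in the fits. Named were the 6 genes with all their probes, pathway enzymes, up to 4 called genes with the largest change each way per list, genes most like the median profile, and Nos2. Scap, Srebf1, Fasn, Fnta, Dhdds, Coq2, Nr1h3, Flt3, Cd209a, Mpo and Elane were named after their values were seen. Alternatives tried were quantile normalization, neqc, a floor of 16, no detection filter, detection on all arrays, a fit of only the groups compared, the replicate number as a block, averaged probes, each replicate left out in turn and, added after seeing the data, an intercept in the scaling line. Promoter windows came from a RefSeq table and were searched for letters only.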

Additional observations from a re-analysis of the deposited data

Results flagged for a closer look

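For 30 of the genes described, the response to LPS plus IFN-γ differed between WT and iNOS-/- cells by the interaction term of the limma fit. Over all tested genes 23.6% had a more negative and 20.1% a more positive response in iNOS-/- cells. Tested were 6 genes of the first list, 11 other cholesterol synthesis genes and 10 of SREBP processing and sterol uptake. The fatty acid, isoprenoid and oxysterol lists had 11, 5 and 8 tested genes. Values are log2, the response in iNOS-/- minus that in WT cells, and the cause of no difference was tested. For the enzymes described first, the difference was -0.90 for Sqle, 1.38 for Idi1, -1.11 for Lss and -0.68 for Cyp51.

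Among the other cholesterol synthesis enzymes it was -2.52 for Acat2, 1.85 for Pmvk, -1.91 for Mvd, -2.45 for Lbr, -0.51 for Hsd17b7 and -3.14 for Dhcr7. Dhcr7 was undetected on both iNOS-/- M1 arrays, so its value depends on the floor. Pmvk, like Idi1, is positive where the enzymes around it are negative.

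Among genes of SREBP processing and sterol uptake it was -1.49 for Srebf2, 1.59 for Insig2, -1.24 for Mbtps1, 2.29 for Rnf139, -1.83 for Stard4, 1.63 for Npc2 and -1.43 for Tmem97. Srebf2, Insig2, Mbtps1 and Npc2 were each called in both genotypes with opposite signs on their brightest probes. The other Mbtps1 probes were not called in iNOS-/- cells, and the dimmer Rnf139 probe gave a difference of -1.35 (adjusted p = 0.3135, limma).

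Among fatty acid and glycerolipid genes it was -1.18 for Acss2, -0.78 for Scd1, -3.71 for Scd2, 0.51 for Elovl5, -6.27 for Elovl6, -1.16 for Fads1, -2.72 for Fads2 and -2.38 for Lpin1. Elovl6 was undetected on both iNOS-/- M1 arrays, so its fitted value is set by the floor and is no measured size, and Scd2 and Lpin1 on 1 of the 2. In the remaining lists it was -0.91 for Fntb, -1.005 for Abcg1, 2.43 for Apoe, 1.08 for Ch25h and -1.26 for Cyp27a1.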

How the results depend on the processing

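The count of the 6 genes called stayed at 5 or 6 in iNOS-/- M1 against WT M1 under every alternative, and leaving out single replicates gave 5 to 6. In iNOS-/- cells the response was called for 6 genes, for 3 when only the groups compared were fitted, and for 3 to 5 with single replicates left out. The unstimulated genotype comparison gave 5 genes, 3 when only the groups compared were fitted, and 1 to 5 with single replicates left out. The difference of the responses gave 4 genes and 2 to 3 with single replicates left out, and it could not be fitted with only the groups compared. The WT response gave 1 gene, 2 under neqc, 0 without a detection filter, 2 with detection on all arrays, 0 when only the groups compared were fitted, and 0 to 1 with single replicates left out. Replicate numbers did not pair the samples (correlation of deviations -0.04 to 0.02 over probes), and with the replicate block 0 genes were called in the WT response, 5 in the iNOS-/- response, 6 between the M1 groups, 4 between the unstimulated groups and 4 for the difference of the responses. Of the single values of the 6 genes, 240 kept their direction and call under alternatives that keep all arrays, 16 lost the call and 6 gained it; with replicates left out 185 kept both, 49 lost the call and 1 gained it.

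Some values changed sign. For Insig1 the difference of the responses, -0.05, became 0.0078 under quantile normalization and 0.54 (adjusted p = 0.02252, limma) when the probes were averaged, and ran from -0.183 to 0.091 with single replicates left out, positive without WT unstimulated replicate 1, iNOS-/- unstimulated replicate 2 or iNOS-/- M1 replicate 2. With single replicates left out, the Idi1 difference between unstimulated groups ran from -0.623 to 0.0235, positive without iNOS-/- unstimulated replicate 1, and the Fdps response in WT from -0.147 to 0.0004, positive without WT M1 replicate 1. In iNOS-/- cells the called response of Elovl5 became -0.13 under both quantile normalization and neqc. At a floor of 16 the Sc5d difference between the M1 groups, called otherwise, was 0, since its values in both groups lay at the floor.

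The scaling moved the median of all genes most in the difference of the responses (-0.05, or 0.29 where the scaling line had an intercept, which was chosen after seeing the data). The share of called probes that were higher moved from 59.3% to 47.5%, 44.4% and 49.0% in the WT response under quantile normalization, neqc and the intercept, from 47.5% to 58.4% between the M1 groups and from 46.1% to 59.7% for the difference of the responses under the intercept. Relative to all genes, the median of the 6 genes in iNOS-/- M1 against WT M1 was -0.98, and -1.18, -1.17 and -1.27 under these alternatives.

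With 2 arrays a group, intensities near background, as for Dhcr7, Sc5d and Elovl6 in iNOS-/- M1, limit those folds to bounds.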
